A study of Homo sapiens with 6 samples.

Results

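Solute carriers are membrane proteins that move amino acids, sugars, metals, ions, nucleotides and other small molecules across the plasma membrane and the membranes of organelles. C-to-U edits in the transcripts of their genes were measured by long-read INSCRIBE in HEK293T cells, a human embryonic kidney line. A gene was a member if GENCODE release 44 calls it protein-coding and its name starts with SLC followed by a digit. Of 374 such genes in the annotation, 112 had at least 1 edited isoform in at least 1 of 6 libraries, among 7684 genes listed in all, and 262 were not listed. A gene that is not listed had no edit left in these libraries after the processing described below, whether or not it had reads. The 112 genes had 140 listed isoforms, of which 131 are annotated as protein-coding, 7 as retained intron and 2 as targets of nonsense-mediated decay. The name rule also takes in SLC2A4RG and SLC7A6OS, which are named after a neighbouring or regulated carrier and are not carriers.

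In RBFOX2-INSCRIBE, fixed HEK293T cells received a rabbit antibody against RBFOX2 and then Apo1-Nb, a purified fusion of rat APOBEC1 with a nanobody that recognises rabbit IgG. Cells of the enzyme-only control were given Apo1-Nb but no RBFOX2 antibody, and those of the buffer-only control neither. No transgene was used, so RBFOX2 was at the level of the cells themselves. There were 2 PacBio libraries in each of the 3 groups, named here by the replicate numbers in their titles: RBFOX2-INSCRIBE 1 and 2, enzyme-only 2 and 3, and buffer-only 1 and 2. Replicates of an experiment were wells of the same line according to the methods, and nothing in the labels ties the long-read libraries to separate cultures. The p-values below therefore measure the spread between these libraries, which may be technical. The labels call the line HEK293T in the titles and HEK293XT elsewhere, and give kidney as the tissue. Of 17 transporters of the kidney tubule, none was listed. Of 7 other kidney markers 1 was, LRP2, a receptor of the proximal tubule, with 2 to 13 edited Cs a library. Of 7 genes known from HEK293 cells, 5 were listed: IGF2BP1, KRT18, LIN28B, NEFM and VIM.

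RBFOX2 is an RNA-binding protein that regulates splicing in the nucleus and is also found on 3′ UTRs, and its preferred sequence is UGCAUG. APOBEC1 deaminates cytosine to uracil, so an edit marks a cytosine that the tethered or free enzyme reached, and it prefers cytosines that follow A or U. In the buffer-only control no enzyme was added, and C-to-U differences there come from other sources.

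The measurement is a list of edited positions of each isoform with the fraction of its reads that carried the edit. The number of reads was not part of it, so neither the depth nor the error of a fraction is known, and no interval is given. An edited C is counted here once per gene and library, where it lies in an exon of its isoform and on its strand. In values of genes and of single sites its fraction is the highest among the isoforms of the gene that list it. EditsC of a gene is the share of its exonic Cs, over all listed isoforms, that were edited. An edited C is found more often in a gene with more reads, so a difference in editsC between libraries can be a difference in editing or in depth, and these cannot be told apart here. For 2 libraries against 2 the smallest p of a two-sided exact permutation test is 0.33.

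The sites that carried an edit near UGCAUG in both RBFOX2-INSCRIBE libraries and in no control library are shown first, because they are edits close to the preferred sequence of RBFOX2 that were listed only where the antibody was used. They were chosen by edit fraction, with at most 2 sites for a gene. Each line below gives 30 bases or fewer of the mRNA, 5′ to 3′, read from hg38 along the exons of GENCODE isoforms, with UGCAUG and the edited C in capitals and the rest in lower case.
SLC30A9, 3′ UTR, chr4:42087618-42087647, plus strand: agaguauuuUGCAUGcuguaCauuuuaagu
SLC30A9, 3′ UTR, chr4:42087627-42087655, plus strand: UGCAUGcuguacauuuuaagugaaauaaC
SLC25A46, CDS, chr5:110761706-110761734, plus strand: uacaguacacaCUGCAUGcagcuguuuua
SLC35A5, 3′ UTR, chr3:112583775-112583803, plus strand: gcuaCuucacacuuaaaagUGCAUGguau
SLC35A5, 3′ UTR, chr3:112583814-112583843, plus strand: auuuUGCAUGcagccaguuaacucuCguag

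In SLC30A9, a carrier of zinc and a transcriptional cofactor, the edited C 6 nt downstream of the motif carried an edit fraction of 5.41% and 9.68% in RBFOX2-INSCRIBE 1 and 2. The next one, 23 nt downstream, had 2.70% and 9.68%. Both were listed in no control library. In SLC25A46, a protein of the outer mitochondrial membrane that acts on mitochondrial shape, the edited C lay directly before the motif in the coding sequence, with fractions of 1.14% and 10%. A second C of the same gene, 42 nt downstream of this motif, had 2.84% and 2.38%. In SLC35A5, a member of the nucleotide sugar carrier family, 2 copies of UGCAUG stand close together in the 3′ UTR, and the sites had 4.35% and 4% before the first copy and 1.58% and 0.581% after the second. The fractions of a site differed between the 2 libraries by up to several-fold, and the reads behind them are unknown. SLC25A46 and SLC35A5 each have 2 listed isoforms, so the fractions of their sites and libraries need not come from the same isoform.

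At the other sites of this selection the edited C and the motif are too far apart for 1 window of this length, so the motif and the site are printed separately. In SLC16A14, an orphan member of the monocarboxylate carrier family, sites on both sides of 1 motif were edited. The site 26 nt downstream had fractions of 4.55% and 8.16%, and the site 37 nt upstream had 6.82% and 2.04%. In SLC36A4, an amino acid carrier, the site 38 nt downstream had 3.68% and 2.33%. In SLC1A3, the glial high-affinity glutamate carrier, the site 25 nt downstream lay in an isoform with a retained intron, with 5.26% and 2.50%.
SLC16A14 motif, 3′ UTR, chr2:230035653-230035678, minus strand: gacaauagauUGCAUGucauacucca
SLC16A14 site, 3′ UTR, chr2:230035627-230035647, minus strand: uucaacacaaCaaccuaugug
SLC16A14 site, 3′ UTR, chr2:230035695-230035715, minus strand: ccuccaaugaCucgggaauug
SLC36A4 motif, 3′ UTR, chr11:93145242-93145267, minus strand: uaugucaaugUGCAUGuuuugaauuu
SLC36A4 site, 3′ UTR, chr11:93145204-93145224, minus strand: uuaguaguuuCauaguaguua
SLC1A3 motif, retained intron isoform, chr5:36629738-36629763, plus strand: gcuuuaguaaUGCAUGaaugauuaua
SLC1A3 site, retained intron isoform, chr5:36629768-36629788, plus strand: ucguauuuuaCcaaucacaag

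Together the solute carriers had 2871 and 3041 edited Cs in RBFOX2-INSCRIBE, and 1218 and 2369 with enzyme only. The buffer-only control had 1059 and 1007. The RBFOX2-INSCRIBE libraries were highest and close to each other, the buffer-only libraries lowest, and the enzyme-only libraries differed from each other almost as much as the groups did. EditsC was 2.45% ± 0.0995 (SD, n = 2) in RBFOX2-INSCRIBE, 1.48% ± 0.674 in the enzyme-only control and 0.855% ± 0.0304 in the buffer-only control. RBFOX2-INSCRIBE had 1.65 times the edited Cs of the enzyme-only control and 2.86 times those of the buffer-only control, and the enzyme-only control had 1.74 times those of the buffer-only control (p = 0.33 for each in two-sided exact permutation tests, 3 comparisons). Over all genes the same ratios were 1.70, 2.82 and 1.66. Solute carriers held between 1.41% and 1.54% of all edited Cs in every library. The gain in edited Cs over these genes was therefore close to that over the transcriptome. In all, 9221 of 120806 Cs (7.63%) were edited in at least 1 library, and 61 genes were edited in all 6 libraries.

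The 8 genes with the most edited Cs came from several families. SLC38A2, a sodium-coupled carrier of neutral amino acids that cells induce when amino acids run short, had 161 and 203 edited Cs of 867 in RBFOX2-INSCRIBE, 57 and 128 with enzyme only, and 50 and 53 in the buffer-only control. Its relative SLC38A1, which imports glutamine, had 168 and 188 of 1645, then 57 and 141, then 56 and 64. In both genes RBFOX2-INSCRIBE lay above the controls and enzyme-only 2 lay near the buffer-only libraries. SLC39A6, a zinc importer, had 123 and 154 of 735, then 45 and 87, then 54 and 33. SLC30A9 had 128 and 130 of 1137, then 37 and 78, then 42 and 26. The zinc genes thus also had no overlap between RBFOX2-INSCRIBE and either control. SLC7A1, a carrier of cationic amino acids, had 130 and 129 of 1985, 79 and 122, and 66 and 72. SLC35B4, which carries nucleotide sugars, had 113 and 121 of 1401, 44 and 94, and 27 and 48. SLC36A4 had 101 and 99 of 1021, 41 and 54, and 28 and 18. SLC25A5, an ADP/ATP carrier of the inner mitochondrial membrane, departed from the order of the others, with 73 and 58 of 308 in RBFOX2-INSCRIBE, 86 and 60 with enzyme only, and 40 and 36 in the buffer-only control. Per exonic C, SLC25A5 was the most edited of the 8 in RBFOX2-INSCRIBE, at 21.3% ± 3.44 (SD, n = 2), and SLC38A2 and SLC39A6 followed at 21.0% ± 3.43 and 18.8% ± 2.98. These 3 do not differ beyond their spread. SLC30A9 and SLC38A1 came next at 11.3% ± 0.124 and 10.8% ± 0.860. The 8 genes held between 32.2% and 36.6% of the edited Cs of all solute carriers in every library.

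**Figure D1:**
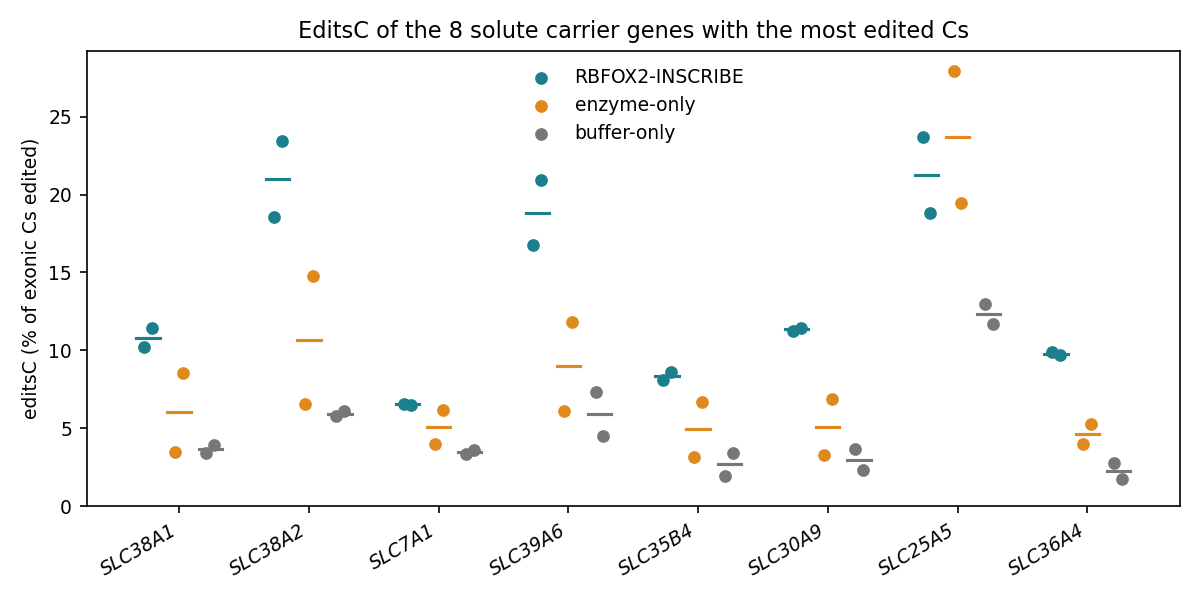
EditsC, in percent of exonic Cs, of the 8 solute carrier genes with the most edited Cs; each point is 1 library, each line the mean of the 2 libraries of a group. RBFOX2-INSCRIBE lies above both controls in each gene but SLC25A5, where RBFOX2-INSCRIBE and the enzyme-only control overlap.

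Against the enzyme-only control, which asks what the RBFOX2 antibody adds to the same enzyme, no single solute carrier passed the test. Of 78 genes that averaged 5 edited Cs or more, 0 passed an adjusted p of 0.05 (limma with Benjamini-Hochberg adjustment over all 5088 genes tested). Over all genes tested 6 passed, which is 0.118%. At an unadjusted p under 0.05 there were 16, of which 15 were higher in RBFOX2-INSCRIBE (19.2%, against 16.4% of all genes tested). In 34 genes (43.6%) the lower RBFOX2-INSCRIBE value exceeded the higher enzyme-only value, which held for 51.8% of all genes tested. In 4 genes (5.13%) they lay below, against 3.58% of all genes tested. The median log2 difference in editsC was 0.87 over the solute carriers tested and 0.85 over all genes tested. This outcome depended on the enzyme-only libraries. Without enzyme-only 3, 24 of 78 solute carriers passed, all higher in RBFOX2-INSCRIBE, among 1696 genes of 5115. That fit leaves enzyme-only 2 alone, which had the fewer edited Cs, and takes its spread from the RBFOX2-INSCRIBE libraries. In the same way, without enzyme-only 2 none passed and the median log2 difference was 0.27.

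The smallest unadjusted p of this comparison belonged to an iron exporter. SLC40A1, ferroportin, which exports iron from cells, had 9 and 13 edited Cs in RBFOX2-INSCRIBE, 0 and 0 with enzyme only, and 1 and 3 in the buffer-only control (unadjusted p = 0.0011, adjusted p = 0.13). SLC12A2, the sodium-potassium-chloride cotransporter, had 42 and 41, then 8 and 13, then 8 and 8, with a log2 difference in editsC of 1.97 ± 0.75 (SE). SLC38A9, a lysosomal amino acid sensor upstream of mTORC1, had 7 and 11, then 0 and 4, then 6 and 0. The libraries of SLC40A1, SLC12A2 and SLC38A9 did not overlap between RBFOX2-INSCRIBE and either control. For SLC38A9 the closest values were 7 in RBFOX2-INSCRIBE and 6 in the buffer-only control. SLC25A40, a mitochondrial carrier linked to glutathione, had 55 and 35, then 8 and 19, then 4 and 6, and a log2 difference of 1.79 ± 0.68. SLC25A46 had 68 and 69, then 16 and 27, then 13 and 8, and a log2 difference of 1.70 ± 0.67. SLC16A14 had 23 and 21, then 6 and 5, then 2 and 4, and a log2 difference of 1.91 ± 0.79. In these 3 genes the lowest RBFOX2-INSCRIBE library was above the highest control library. SLC39A8, an importer of zinc and manganese, had 11 and 12, then 0 and 9, then 6 and 6. SLC25A13, the aspartate-glutamate carrier citrin, had 46 and 58, then 10 and 31, then 15 and 12. The 1 gene lower in RBFOX2-INSCRIBE at an unadjusted p under 0.05 was the zinc carrier SLC39A3, with 0 and 1, then 13 and 7, then 9 and 1; it was named after its values were seen.

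Against the buffer-only control, which lacks both the antibody and the enzyme, 43 of 75 solute carriers tested had higher editsC in RBFOX2-INSCRIBE and 1 had lower editsC at an adjusted p under 0.05. That is 57.3% higher, against 61.1% of the 4802 genes tested (2934 genes), and 1.33% lower, against 0.0625%. In 53 carriers (70.7%) the groups did not overlap with RBFOX2-INSCRIBE higher, against 80.7% of all genes tested, and in 1 (1.33%) with it lower, against 0.958%. The median log2 difference was 1.71 over the solute carriers and 1.54 over all genes tested. The count changed with scaling: with every library scaled to the same total of edited Cs, 0 solute carriers were higher and 1 was lower, and of the 74 genes then called among all genes, 41.9% were higher, against 99.9% unscaled. On that scale the medians were 0.23 over the solute carriers and 0.01 over all genes. Without either RBFOX2-INSCRIBE library, which leaves a single library whose spread is taken from the other group, none passed.

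The classes that follow are sets of families, taken from the number after SLC in the gene name, and single members can carry something else. Their counts against the buffer-only control stand beside 61.1% of all genes tested called higher. In 80.7% of all genes tested the groups did not overlap, with RBFOX2-INSCRIBE higher. Each class holds few genes, and whether any class differs from these shares was not tested. The SLC35 family, whose best-known members bring nucleotide sugars into the Golgi and endoplasmic reticulum, had 8 of 9 tested genes higher and none lower. The 9 include SLC35F2, SLC35F5 and SLC35G1, which are members by name and were all among the 8. SLC35A5 had 70 and 60 edited Cs against 11 and 9 in the buffer-only control (log2 difference 2.64 ± 0.31, adjusted p = 7.3e-04, limma). SLC35A1, the CMP-sialic acid carrier, had 14 and 19 against 1 and 0, the largest log2 difference upward among the carriers called. The zinc and other metal carriers had 7 of 10 higher, among them SLC30A1, a zinc exporter of the plasma membrane, with 58 and 74 against 10 and 13 (2.47 ± 0.36). The ion cotransporters had 3 of 4 higher: SLC12A2, SLC20A1, a phosphate importer that had 90 and 71 against 26 and 20, and SLC26A2, a sulfate carrier that had 61 and 41 against 15 and 20. All 3 of these ion carriers had both RBFOX2-INSCRIBE libraries above both buffer-only libraries.

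Among amino acid carriers 8 of 14 were higher. SLC7A11, the cystine importer on which glutathione synthesis depends, had 76 and 129 edited Cs against 10 and 17 (log2 difference 2.88 ± 0.44), and SLC1A3 had 20 and 29 against 2 and 5 (2.73 ± 0.75). The members that did not pass included SLC1A5, a glutamine carrier, with 61 and 57 against 47 and 36, and SLC7A5, the large neutral amino acid carrier, with 0 and 10 against 5 and 10. Of the 7 genes tested in the SLC2, SLC5 and SLC16 families, which carry sugars, monocarboxylates and other substrates, 1 was lower, SLC5A3, described below, and 2 were higher: SLC16A1, which carries lactate, with 82 and 51 against 15 and 16, and SLC16A14. The nucleoside, vitamin and cofactor carriers had 2 of 5 higher: SLC33A1, which carries acetyl-CoA into the endoplasmic reticulum, with 63 and 73 against 12 and 11, and SLC19A2, a thiamine carrier, with 7 and 15 against 4 and 1. Of the 6 other carriers tested 4 were higher, including SLC44A5, a choline carrier relative, with 21 and 14 against 4 and 1 (2.76 ± 0.72).

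The mitochondrial carriers of the SLC25 family, most of which exchange metabolites across the inner membrane, were the most numerous group and had the lowest medians in both comparisons with RBFOX2-INSCRIBE. Of 20 tested against the buffer-only control 9 were higher, and the median log2 difference was 0.92. Against the enzyme-only control the median over 21 genes was 0.17. The values of this family ranged widely. SLC25A24, an ATP-Mg/phosphate carrier, with 13 and 7 against 1 and 0 in the buffer-only control, SLC25A40, SLC25A46 and SLC25A36 had log2 differences between 2.21 and 3.54 against the buffer-only control. SLC25A36, which carries pyrimidine nucleotides, had 40 and 42 edited Cs against 8 and 9. SLC25A6, a second ADP/ATP carrier, had 12 and 9 edited Cs in RBFOX2-INSCRIBE, 23 and 18 with enzyme only, and 12 and 13 in the buffer-only control. SLC25A11, the oxoglutarate carrier, had 16 and 11, then 31 and 23, then 16 and 18. In both, each RBFOX2-INSCRIBE library lay below each enzyme-only library, although neither difference passed the test (unadjusted p = 0.17 and 0.15). SLC25A39, which imports glutathione, had 14 and 7, then 15 and 21, then 17 and 13, again with no overlap. Whether the family differs from the other carriers was not tested.

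**Figure D2:**
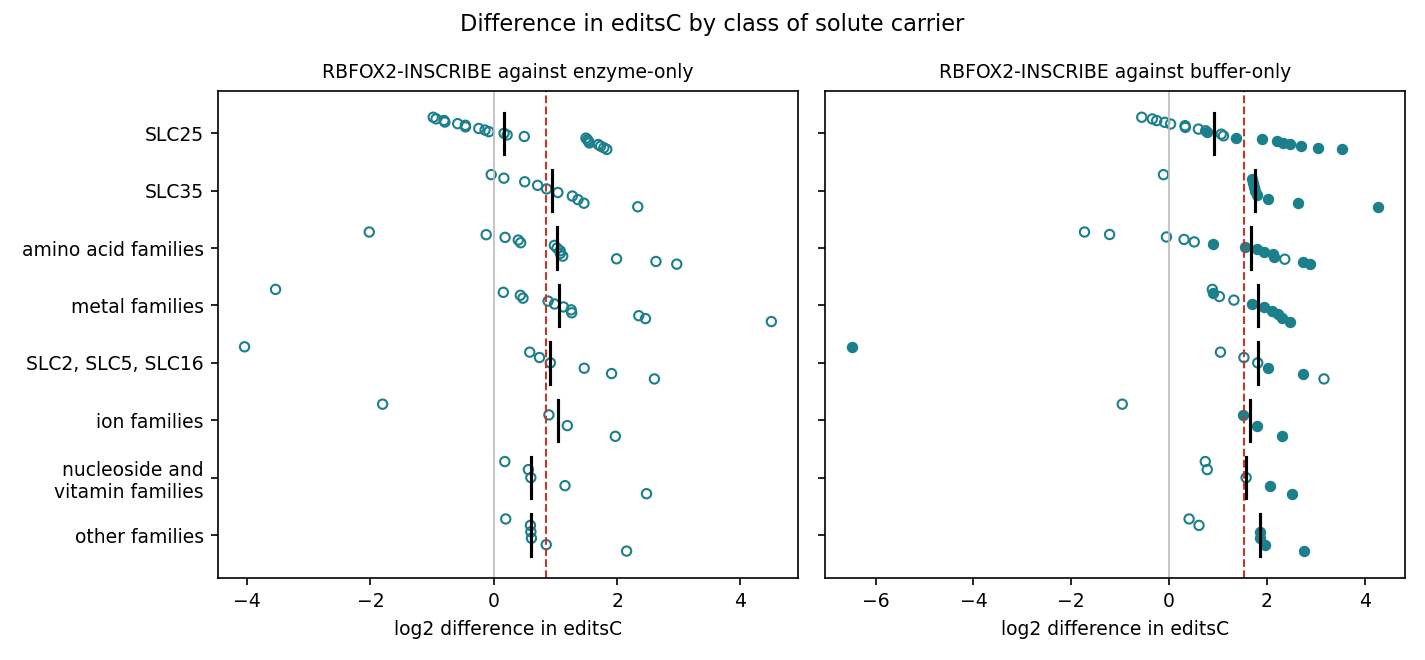
Log2 difference in editsC of each solute carrier gene tested, by class, for RBFOX2-INSCRIBE against enzyme-only (left) and buffer-only (right); filled points passed an adjusted p of 0.05, rows are sets of families by the number after SLC, black bars are their medians and the dashed red line is the median of all genes tested. The SLC25 mitochondrial carriers have the lowest medians, of 0.17 and 0.92, and the lone point far to the left on the right panel is SLC5A3.

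SLC5A3 was the 1 carrier called lower in RBFOX2-INSCRIBE than in the buffer-only control. It encodes a sodium-coupled importer of myo-inositol. Its listed isoform, ENST00000381151, had 0 edited Cs of 2039 in both RBFOX2-INSCRIBE libraries and in enzyme-only 2, 135 in enzyme-only 3, and 44 and 45 in the buffer-only libraries (adjusted p = 0.0010, limma, and between 0.056 and 0.073 with any of the 4 libraries left out). No edit of another isoform was listed inside its exons in any library. The annotation has MRPS6 and a further gene overlapping it on the same strand, and reads were assigned to isoforms only where the assignment was unique. Of 733 isoforms of all genes with at least 20 edited Cs in both buffer-only libraries, it was the only 1 listed in neither RBFOX2-INSCRIBE library. Whether it had reads there cannot be told from these values. Without it the carriers' ratio of RBFOX2-INSCRIBE to buffer-only edited Cs was 2.99 in place of 2.86.

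Between the controls, which asks what the untethered enzyme adds, 1 of 59 carriers tested was higher in the enzyme-only control, 1.69% against 0.547% of the 4208 genes tested, and none was lower. At an unadjusted p under 0.05 there were 4, all higher, which is 6.78% against 14.9% of all genes tested. The carrier that passed was SLC35A1, with 8 and 26 edited Cs of 328 against 1 and 0 (log2 difference 4.12 ± 0.74, adjusted p = 6.5e-05, limma). This difference depends on the pseudocount, since it rests on 1 edited C in the buffer-only control: it was 5.45 with 0.1 and 3.46 with 1. The call was lost with any 1 library left out and after scaling to the same total. In 26 carriers (44.1%) the enzyme-only libraries were both above the buffer-only ones, against 44.4% of all genes tested, and in none both below, against 1.31%. The other carriers with the smallest unadjusted p did not pass: SLC7A11 had 36 and 65 against 10 and 17, SLC37A3 had 20 and 38 against 10 and 7, and SLC25A17 had 26 and 29 against 8 and 12. SLC25A17, a peroxisomal carrier of cofactors, was close in the enzyme-only control and RBFOX2-INSCRIBE, which had 27 and 25. SLC30A5, a zinc carrier of the secretory pathway, had 12 and 62 against 10 and 11, SLC44A1, a choline carrier, had 28 and 68 against 14 and 20, SLC33A1 had 26 and 35 against 12 and 11, and SLC16A10, an aromatic amino acid carrier, had 8 and 9 against 0 and 4. The median log2 difference was 0.64 over the carriers and 0.69 over all genes tested.

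Carriers with AU-rich transcripts were called more often than carriers with GC-rich ones. Of 52 carriers tested against the buffer-only control whose most edited isoform had under 50% G and C, 40 were higher, and of 23 with at least 50%, 3 were. The median log2 differences were 1.95 and 0.41. Over all genes tested the shares called higher were 74.1% and 20.7%. Against the enzyme-only control the medians were 1.14 over 54 carriers and 0.29 over 24. The RBFOX2-INSCRIBE libraries were the 2 highest of the 4 in 30 of the 54 and in 4 of the 24, and the 4 genes with the reverse order were all in the upper group. Over all genes tested the medians were 0.99 and 0.35. There RBFOX2-INSCRIBE was highest in 2283 of 3812 and 352 of 1276 genes, and the order was reversed in 63 and 119. Across genes Spearman's rho between GC content and the log2 difference against the buffer-only control was -0.64 over the 75 carriers and -0.60 over all 4802 genes, which share their libraries and are not independent replicates. SLC25A6, SLC25A11 and SLC25A39 had 60.7%, 58.5% and 62.0% G and C, whereas SLC25A40, SLC25A46 and SLC25A36 had 34.3%, 35.8% and 37.1%. SLC5A3, at 38.3%, did not follow this order. The limit of 50% was chosen after the values were seen, and no test of it was made.

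**Figure D3:**
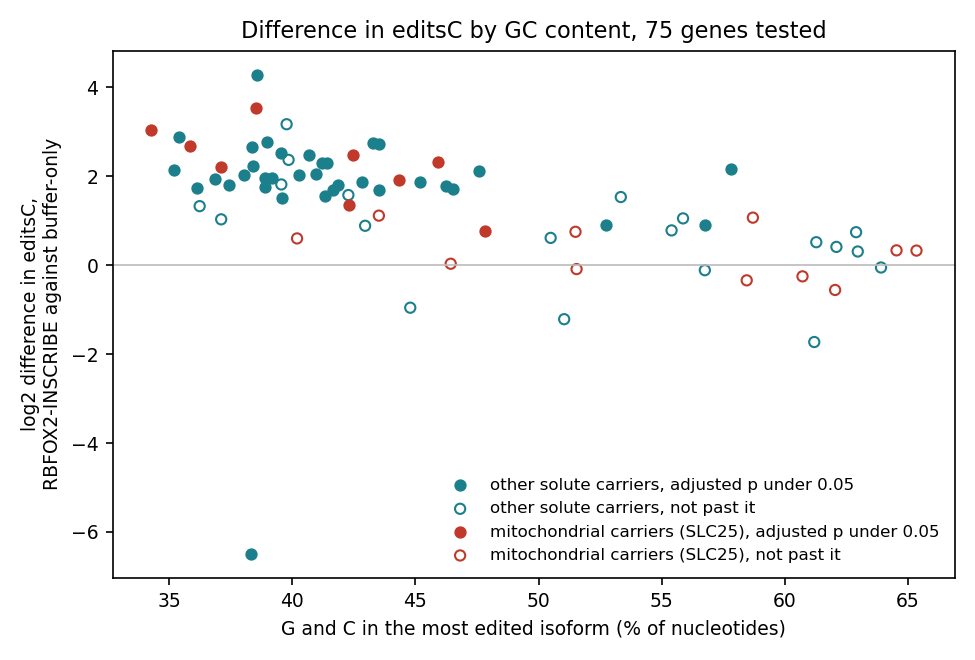
Log2 difference in editsC between RBFOX2-INSCRIBE and buffer-only for 75 solute carrier genes, against the percentage of G and C in the most edited isoform; filled points passed an adjusted p of 0.05 and red points are mitochondrial carriers. Of 52 genes under 50%, 40 were called higher, and of 23 at or above 50%, 3 were.

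The base before the C separated the groups in the carriers' transcripts. After A, editsC was 4.37% and 4.83% in RBFOX2-INSCRIBE, 1.51% and 3.41% with enzyme only, and 0.751% and 0.732% in the buffer-only control. After U it was 3.13% and 3.40%, then 1.10% and 2.43%, then 0.772% and 0.785%. After C the 6 libraries lay between 0.505% and 0.750%, and after G between 1.02% and 1.61%. The gain over the buffer-only control was thus a gain at Cs after A or U, 6.20-fold and 4.19-fold by group means, while after G and C it was 1.28-fold and 1.09-fold. Over all genes these were 5.94, 4.1, 1.30 and 1.21. In the buffer-only control Cs after G were edited most, in both libraries.

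By region, 62.8% and 63.3% of the carriers' edited Cs lay in 3′ UTRs in RBFOX2-INSCRIBE, 55.0% and 59.5% with enzyme only, and 52.3% and 55.1% in the buffer-only control. The 3′ UTRs hold 54.4% of the exonic Cs of these genes. EditsC of 3′ UTRs over that of coding sequence was 1.22 and 1.23 in RBFOX2-INSCRIBE, 0.843 and 1.05 with enzyme only, and 0.823 and 0.927 in the buffer-only control, with no overlap between RBFOX2-INSCRIBE and either control (two-sided exact permutation test, p = 0.33). Over all genes the ratio was higher in RBFOX2-INSCRIBE, at 1.56 and 1.63. The 5′ UTRs, with 7.56% of the Cs, held 2.68% and 2.33% of the edited Cs in RBFOX2-INSCRIBE, 2.63% and 2.53% with enzyme only, and 5.76% and 5.66% in the buffer-only control.

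**Figure D4:**
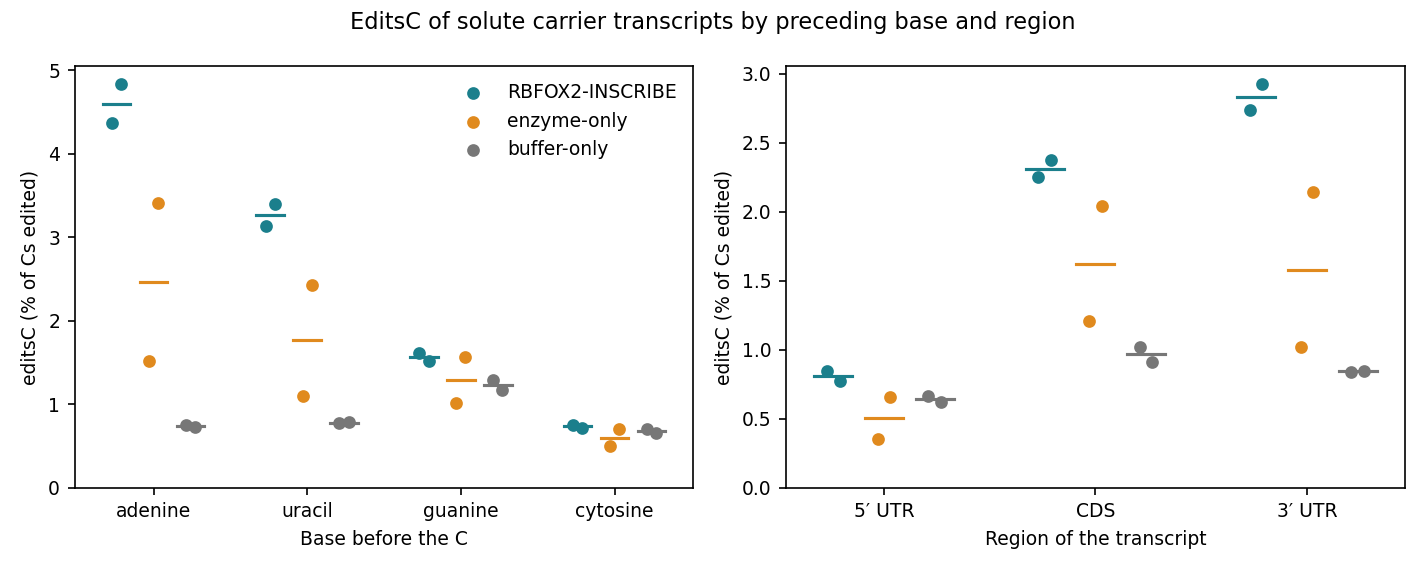
EditsC of solute carrier transcripts by the base before the C (left) and by region of protein-coding isoforms (right); each point is 1 library and each line a group mean. Groups separate after adenine and uracil and in both 3′ UTRs and coding sequence, and lie close together after guanine and cytosine.

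UGCAUG occurs 153 times in the listed isoforms of 76 carriers, 97 of them in 3′ UTRs and 38 in coding sequence, and 36 carriers have no copy. Within 50 nt of it lie 3309 of the 120806 Cs (2.74%). Of these, 153 and 150 were edited in RBFOX2-INSCRIBE, 34 and 67 with enzyme only, and 32 and 26 in the buffer-only control. EditsC within 50 nt was 2.00 and 1.84 times that of the Cs farther away in RBFOX2-INSCRIBE, 1.02 and 1.03 times in the enzyme-only control, and 1.11 and 0.941 times in the buffer-only control. The ratio in RBFOX2-INSCRIBE, 1.92 ± 0.111 (SD, n = 2), was thus 1.87 times that of the enzyme-only control, 1.03 ± 0.00976, a difference that exceeded the spread within either group (p = 0.33 in the exact permutation test). Over all genes the ratios were 1.82 and 1.84 in RBFOX2-INSCRIBE and between 0.962 and 1.07 in the 4 control libraries. Among edits with a fraction of at least 0.02 the carriers' ratios were 2.42 and 2.86 in RBFOX2-INSCRIBE, from 45 and 52 edited Cs near the motif. In the controls they were 0.344, 0.680, 0.543 and 0.707, from 3 to 9 edited Cs. For GCAUG without the leading U the ratios were 1.10 and 1.10 in RBFOX2-INSCRIBE and between 0.826 and 1.14 in the controls, so the groups overlapped; these Cs include those near UGCAUG.

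In RBFOX2-INSCRIBE, editsC was highest in the bin next to the motif on the 3′ side, in both libraries. On the 3′ side, from 1 to 50 nt, editsC was 5.26% and 5.58% in RBFOX2-INSCRIBE, 0.940% and 2.01% with enzyme only, and 1.07% and 0.627% in the buffer-only control. On the 5′ side, from 1 to 50 nt, it was 4.23% and 3.53%, then 1.09% and 2.05%, then 0.769% and 0.897%. Farther on the 5′ side RBFOX2-INSCRIBE had 3.20% and 3.72% from 51 to 100 nt, 2.99% and 3.13% from 101 to 150 nt, and 3.56% in both libraries from 151 to 200 nt, so the 5′ bin next to the motif stood above these in RBFOX2-INSCRIBE 1 but not in RBFOX2-INSCRIBE 2. From 51 to 100 nt on the 3′ side RBFOX2-INSCRIBE had 2.93% and 3.60%. Cs over 200 nt away or in a gene without the motif had 2.25% and 2.39% in RBFOX2-INSCRIBE. In the controls these Cs had 0.984% and 1.92% with enzyme only, and 0.854% and 0.812% with buffer only. From 51 to 200 nt, both enzyme-only libraries lay above these values in every bin, and the buffer-only libraries in most. The rise beyond 50 nt was thus not confined to RBFOX2-INSCRIBE. Within 100 nt the carriers' ratio was 1.69 in both RBFOX2-INSCRIBE libraries and between 1.14 and 1.25 in the controls. Over all genes the control ratios lay between 0.979 and 1.08. The ratio for Cs within 50 nt did not rest on 1 gene. Without any 1 of the 5 genes with the most edits within 50 nt, SLC30A9, SLC38A2, SLC38A1, SLC25A46 and SLC35A5, its mean in RBFOX2-INSCRIBE was between 1.83 and 1.92.

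**Figure D5:**
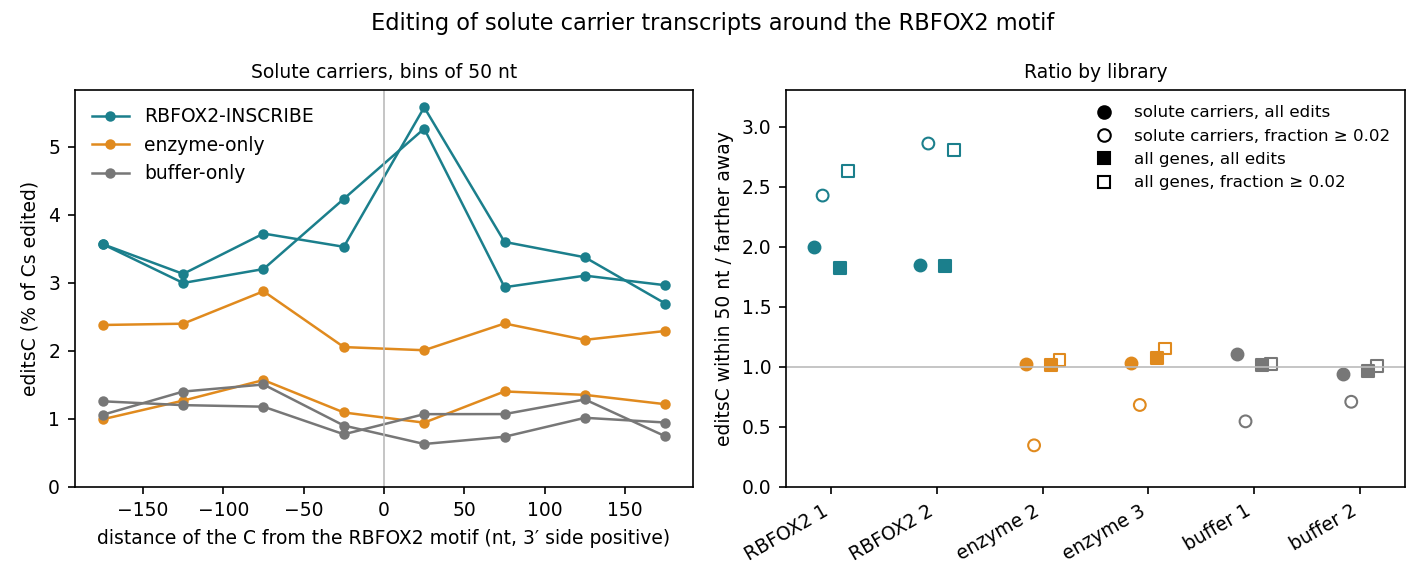
Left, editsC of solute carrier Cs in bins of 50 nt by distance from the nearest RBFOX2 motif, 1 line for each library; right, editsC within 50 nt of the motif over that farther away, by library, for solute carriers (circles) and all genes (squares), with all edits (filled) and with edit fractions of at least 0.02 (open). RBFOX2-INSCRIBE peaks at 5.26% and 5.58% in the first bin on the 3′ side, and its ratios of 2.00 and 1.84 lie above those of every control library.

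Of the 76 carriers with the motif, 28 (36.8%) had an edited C within 50 nt of it in both RBFOX2-INSCRIBE libraries, 15 (19.7%) in both enzyme-only and 10 (13.2%) in both buffer-only libraries. Over all 4449 genes with such Cs these shares were 37.8%, 17.9% and 12.5%. In 16 carriers (21.1%) both RBFOX2-INSCRIBE libraries had more such Cs than every control library, against 22.7% of all genes, so the carriers' counts near the motif were close to those of all genes. The motif in the coding sequence of SLC25A46, printed above, had 11 and 9 edited Cs of 17 within 50 nt in RBFOX2-INSCRIBE, 0 and 0 with enzyme only, and 1 and 0 in the buffer-only control. A motif in the coding sequence of SLC30A9 had 11 and 10 of 22, then 0 and 4, then 3 and 1. Of the 2 motifs in the 3′ UTR of SLC38A1, 1 had 9 and 11 of 17, then 2 and 1, then 2 and 1, and the other had 0 of 24 in all 6 libraries. At the SLC25A46 and SLC30A9 motifs and the edited SLC38A1 motif every RBFOX2-INSCRIBE library had at least 9 edited Cs and no control library had more than 4. The motif of SLC16A14 had 7 and 3 of 23 in RBFOX2-INSCRIBE and none in the 4 control libraries. SLC20A1 had 7 and 4 of 25 at a motif in its coding sequence, then 1 and 1, then 1 and 0. The ADP/ATP carrier SLC25A5 did not follow this pattern, with 6 and 6 of 16, then 9 and 3, then 4 and 1. Of these edits, those with a fraction of at least 0.02 were fewer. SLC16A14 kept 7 and 3 in RBFOX2-INSCRIBE and SLC25A46 kept 4 and 4, with none in the controls. The edited motifs of SLC30A9, SLC38A1, SLC20A1 and SLC25A5 described here kept none in any library. A small fraction can only be seen with many reads, so which edits are kept also depends on depth, which is unknown. Other motifs also had many nearby edits, some with more in the controls. A motif of SLC35A5 had 7 and 10 of 19, then 1 and 6, then 1 and 0. One of SLC38A2 had 8 and 6 of 23, then 2 and 5, then 3 and 3, and that of SLC39A6 had 7 and 7 of 13, then 0 and 4, then 1 and 0. The SLC30A9, SLC38A1, SLC20A1 and SLC25A5 motifs, chosen after the values were seen from among those with many nearby edits, are printed here with the motif in capitals.
SLC30A9, CDS, chr4:42067156-42067185, plus strand: auagcagccacuUGCAUGggccuuacuucu
SLC38A1, 3′ UTR, chr12:46183414-46183443, minus strand: cuuugaaaguccUGCAUGuuugccuuuuau
SLC20A1, CDS, chr2:112659350-112659379, plus strand: aaggugggagauUGCAUGggagacuccggu
SLC25A5, CDS, chrX:119470968-119470997, plus strand: uuuuuucaagggUGCAUGguccaauguucu

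At single sites, 647 Cs of carriers were edited in both RBFOX2-INSCRIBE libraries, 122 in both enzyme-only and 65 in both buffer-only libraries. Of the 647, 50 (7.73%) lay within 50 nt of UGCAUG, and of the 369 that no control library listed, 29 (7.86%) did. The 369 sites lay in 45 genes. The shares were 7 of 122 (5.74%) in the enzyme-only control and 1 of 65 (1.54%) in the buffer-only control, against 2.74% of all Cs. Among sites listed in no other group they were 2 of 55 (3.64%) in the enzyme-only control and 1 of 26 (3.85%) in the buffer-only control. The same counts over all genes are not given here, so whether carriers differ from other genes in them was not tested. No C was listed in all 6 libraries, as the authors removed edits found in all samples. Most edited Cs, 7408 of 9221, were seen in 1 library only. The highest mean fraction among sites in both RBFOX2-INSCRIBE libraries was in the 3′ UTR of SLC35B3, which carries the sulfate donor PAPS into the Golgi, with 33.3% and 12.5% and no control edit. It has no UGCAUG within 50 nt, and the gene had only 6 and 5 edited Cs in these libraries. SLC2A12, a facilitative glucose carrier, followed outside the sites already named, with 6.67% and 4.55% in its 3′ UTR and no UGCAUG in the isoform.
SLC35B3 site, 3′ UTR, chr6:8411699-8411719, minus strand: cuguuaugugCauaugcaggu
SLC2A12 site, 3′ UTR, chr6:133989778-133989798, minus strand: uccuaacaaaCugucccaaug

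Isoforms were then set against a straight line relating mean editsC in RBFOX2-INSCRIBE to that in the enzyme-only control, as the study did. Here, and for the values of this comparison alone, editsC counted only edits with a fraction of 0.02 or more, and the line was fitted over isoforms with such an edit in each of the 4 libraries, a criterion chosen here. The study also filtered on read coverage, which was not possible without read numbers. Of 45 carrier isoforms, 5 lay over 1.5 SD above it (11.1%), against 214 of 3238 isoforms (6.61%). These were the retained intron isoform of SLC1A3, at 3.31% against 1.14%, and the isoforms of SLC16A14 (2.36% against 0.590%), SLC25A40 (2.34% against 0.658%), SLC25A36 (2.85% against 1.28%) and SLC25A12, the aspartate-glutamate carrier aralar (1.77% against 0.570%). The set changes with the fraction filter: with all edits counted, 2 of 72 isoforms were selected, those of SLC38A2 and SLC39A6. In the 4 libraries compared, the selected isoforms of SLC1A3, SLC16A14, SLC25A36 and SLC25A12 lost no edit to the filter. In RBFOX2-INSCRIBE SLC25A40 kept 18 and 14 edits of 55 and 35, and SLC38A2 kept 2 and 2 of 161 and 203. The filter also depends on depth, which is unknown, so a place above the line is not a measure of editing alone.

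Of 19 carriers with 2 or more listed isoforms, 5 had 2 isoforms with enough edited Cs to test whether the difference from the enzyme-only control was unequal between them, and 0 passed (limma, 0 of 580 genes, of which 28 and no carrier had an unadjusted p under 0.05). The smallest p was that of SLC6A15, a neutral amino acid carrier (unadjusted p = 0.059, adjusted p = 0.80). Its protein-coding isoform ENST00000450363 had 15 and 18 edited Cs in RBFOX2-INSCRIBE, 0 and 3 with enzyme only, and its retained intron isoform ENST00000679956 had 6 and 8, and 0 and 18. In SLC25A46 the longer isoform, ENST00000355943, had 60 and 64 against 15 and 27, and ENST00000504098 had 11 and 11 against 1 and 0; both carry the motif printed above. In SLC25A36, ENST00000324194 had 35 and 23 against 10 and 16, and ENST00000507429 had 5 and 19 against 0 and 3. Neither pair passed (unadjusted p = 0.082 and 0.19).

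Other transport genes, ATPases, ABC transporters, porins and carriers with other names, were counted beside the solute carriers. Of 40 such genes 30 were listed. Against the buffer-only control 19 of 24 tested were higher, beside 61.1% of all genes tested. Against the enzyme-only control 0 of 24 passed, beside 0.118% of all genes tested, and 5 had an unadjusted p under 0.05, beside 17%. Their median log2 differences were 1.69 and 0.73, and those of all genes tested were 1.54 and 0.85.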

How the data were processed

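Per the labels and the study's methods, total RNA of 6 HEK293T libraries was made into Kinnex full-length libraries and sequenced on 1 PacBio SMRT Cell a sample. The authors assembled consensus reads with ccs, split, trimmed and refined them with skera, lima and refine, aligned them to hg38 with pbmm2, and dropped reads of low quality or on the wrong strand. Reads with a unique isoform in IsoQuant were kept, and edits shared by all samples or present in dbSNP were taken out. The deposited values are, for each isoform and position, the fraction of reads edited, and read numbers do not accompany them. Depth is therefore unknown and no interval was computed. The annotation version of the long reads is not given in the sources used here. GENCODE release 44 holds 9831 of the 9892 listed isoforms and the others were left out. All 635496 distinct positions have a reference C on the edited strand.

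Edits outside the exons of their isoform or on its opposite strand were left out (between 68 and 111 solute carrier entries a library were on the opposite strand). EditsC of a gene is the share of the exonic Cs of its listed isoforms that were edited. Genes were tested with limma (trend and robust settings, Benjamini-Hochberg adjustment over all genes tested) on the log2 ratio of edited Cs (with a pseudocount of 0.5) to all Cs, where the 4 libraries compared averaged 5 edited Cs or more, and only the 2 groups compared in a fit. In data simulated for RBFOX2-INSCRIBE against buffer-only, over 4802 genes, 4% of genes changed by a factor of 2 were recovered, 58% of those changed by 4 and 92% of those changed by 8. For RBFOX2-INSCRIBE against enzyme-only, over 5088 genes, these shares were 2%, 50% and 98%. The simulated libraries were scaled to the same total before the fit, and those of the main tests were not. These shares therefore hold for scaled libraries and do not give the recovery of the unscaled tests above. Summed values were compared between groups with exact permutation tests over libraries. The distance to UGCAUG was counted along the spliced isoform, and all Cs of the same exons served as the comparison.

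Classes of carriers follow the number after SLC in the gene name. Named genes were, for each comparison, the 8 carriers with the largest differences among those called with groups that do not overlap, filled up with the smallest p; the 8 with the most edited Cs; sites near the motif with the highest fractions in RBFOX2-INSCRIBE and no control edit; isoforms with the largest residuals from the line; and members named as chosen later. The members and the lists were chosen with earlier results of these data known. Alternatives covered the pseudocount, the minimum of edited Cs, scaling, the fraction, the window and the motif, the replicate block and leaving out each library; the total without SLC5A3 was added after seeing the data. Python 3.11.15, pandas 2.3.3, scipy 1.17.1, R 4.3.3, limma 3.58.1 and samtools 1.23.1 were used.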

Additional observations from a re-analysis of the deposited data

How the results depend on the processing

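Among solute carriers, the number higher in RBFOX2-INSCRIBE than in the buffer-only control was 43, went to 0 after scaling to the same total and to 17 of 32 tested with a minimum fraction of 0.02, and ranged from 0 to 38 with 1 library left out. Against the enzyme-only control it was 0, and ranged from 0 to 24 with 1 library left out. Between the controls it was 1 and went to 0 with a minimum mean of 20 edited Cs (SLC35A1 was then not tested), after scaling, with a minimum fraction of 0.02 and without any 1 library (0 to 0). The median log2 difference of the carriers against the enzyme-only control was 0.87, was 0.039 after scaling, and ranged from 0.27 to 1.39 with 1 library left out. Against the buffer-only control it was 1.71, was 1.88 with a minimum mean of 20, 0.23 after scaling and 2.25 with a minimum fraction of 0.02, and ranged from 1.54 to 1.73 with 1 library left out. Between the controls it was 0.64 and turned to -0.047 after scaling. After scaling, the ratio of the carriers' edited Cs in RBFOX2-INSCRIBE to those in the enzyme-only control turned from 1.65 to 0.983. Scaling moved the median of all genes from 0.85, 1.54 and 0.69 to 0.02, 0.01 and 0.02 in the 3 comparisons, so the direction of single genes with small differences depends on it: on that scale SLC7A1 was at -0.42, -0.58 and -0.16, SLC25A5 at -0.71 against the buffer-only control, and SLC38A1 and SLC39A6 at -0.091 and -0.11 between the controls. SLC25A5 against the enzyme-only control turned from -0.14 to 0.023 without RBFOX2-INSCRIBE 2 and 0.12 without enzyme-only 2, in a range from -0.40 to 0.12 with 1 library left out, and SLC38A1 between the controls ranged from -0.070 (without enzyme-only 3) to 1.23. The number of carrier isoforms above the line was 5, was 2 with no fraction filter and 13 where an edit in any of the 4 libraries sufficed, and ranged from 4 to 7 with 1 library left out. The difference in the ratio near UGCAUG and the higher share in 3′ UTRs kept their direction under every alternative run, those without 1 library included. The counts of carriers called in this paragraph stand without the share of all genes called under the same setting. Whether they moved more than those of all genes was not tested. Apart from the effect of scaling, of fewer genes tested and of fewer libraries, the cause of these changes was not tested. Beside the titles, the labels hold a second replicate number, which is 1 for enzyme-only 2 and 2 for enzyme-only 3. The replicate block used this second number. It did not pair the samples: with 2 pairs a comparison, the correlation of deviations was 0.11, 0.05 and -0.03. With the replicate block 42 carriers were higher than in the buffer-only control, 0 than in the enzyme-only control and 1 between the controls. The fit with edits of at least 0.02 could not give a value for genes then under the minimum of edited Cs. Since read numbers are unknown, a listed 0 cannot be told from a lack of reads.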
